A study of Rattus norvegicus with 2 samples.

Results

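The genes described here are 51 targets of p53 and regulators of apoptosis, compared between the 2 arrays of the series. They were chosen by symbol from textbook pathway membership, by a rule that uses no measured value, but with earlier results of these data known. A gene counted as represented where a probe set was annotated to exactly 1 gene and that gene was a member, and of several such probe sets the one brightest on the mean log2 scale stood for it. By this rule 47 of the 51 members were on the array, among 14217 genes in all. Rrm2b, Tnfrsf10b and Pmaip1 had no probe set under the rule, and the probe set of Bax was annotated to a further gene, so these 4 were not analysed here.

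The arrays hold total RNA of AT6.1 cells, an established metastatic rat prostate cancer line. The first came from clone 7, stably transfected with the expression vector pcDNA3 with an insert of the stress-regulated gene Ndrg1 (Ndrg-1 in the labels), and the second from clone 9, transfected with pcDNA3 without an insert. Both clones grew in RPMI medium with 10% serum under 0.3 mg/mL G418. Each group is 1 clone, 1 culture and 1 array, so no p-value can be given, and clone, culture, array and insert cannot be told apart. The 2 probe sets of Ndrg1 had signals of 1353 and 154 in the first array and 1066 and 182 in the second, log2 ratios of 0.34 and -0.24. The transfected gene therefore did not check the labels, and the arrays are called Ndrg-1-labelled and vector-labelled throughout. All ratios are Ndrg-1-labelled over vector-labelled.

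p53 is a transcription factor that is held at low levels by the ubiquitin ligase MDM2 and accumulates when DNA is damaged or cells are stressed. Its targets halt the cell cycle, repair DNA, feed back on p53 itself, or start apoptosis. Apoptosis runs by a mitochondrial route, in which BH3-only proteins and the effectors BAX and BAK oppose BCL2 and its relatives, and by a death receptor route, in which FADD joins receptors to caspase-8. Both routes end in caspases, proteases that are restrained by inhibitor of apoptosis proteins.

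The upstream sequences of 4 members are shown because of where their genes lay in the results. Gadd45a and Endog were the members that reached 2-fold, Ccng2 had the lowest ratio among members above the signal floor in both arrays that had a promoter entry, and Cdkn1a, the best known p53 cell cycle target, lay near 0. The sequences are from RefSeq, build GRCr8, run 5′ to 3′ on the strand of the gene, and cover the 250 bases searched before the start in each promoter entry. For Cdkn1a the first 138 of these are shown, since its annotated gene begins within the stretch. Capitals mark matches, on either strand, to a p53 half-site or to the CCAAT box.
Gadd45a, chr4:97486800-97487049, minus strand: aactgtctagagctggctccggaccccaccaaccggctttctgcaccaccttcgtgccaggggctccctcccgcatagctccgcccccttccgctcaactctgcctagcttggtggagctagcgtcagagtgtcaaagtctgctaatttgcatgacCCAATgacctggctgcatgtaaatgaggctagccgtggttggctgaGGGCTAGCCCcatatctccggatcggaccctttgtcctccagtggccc
Endog, chr3:33846685-33846934, plus strand: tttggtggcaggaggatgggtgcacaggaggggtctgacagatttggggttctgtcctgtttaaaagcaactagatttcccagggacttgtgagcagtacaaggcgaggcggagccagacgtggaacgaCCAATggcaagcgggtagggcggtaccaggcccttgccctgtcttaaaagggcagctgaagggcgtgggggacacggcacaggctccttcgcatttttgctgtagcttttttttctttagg
Ccng2, chr14:15097191-15097440, minus strand: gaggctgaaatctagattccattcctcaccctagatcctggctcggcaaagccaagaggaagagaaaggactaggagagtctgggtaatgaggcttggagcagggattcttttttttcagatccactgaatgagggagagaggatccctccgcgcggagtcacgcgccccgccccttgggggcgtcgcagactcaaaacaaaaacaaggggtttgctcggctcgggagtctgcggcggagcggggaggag
Cdkn1a, chr20:7150682-7150819, plus strand: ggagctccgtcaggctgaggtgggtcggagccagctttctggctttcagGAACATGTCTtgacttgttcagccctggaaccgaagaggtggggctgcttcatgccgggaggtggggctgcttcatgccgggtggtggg
In Gadd45a the capitals are CCAAT and the half-site match GGGCTAGCCC. In Endog they are CCAAT, and in Cdkn1a the half-site match GAACATGTCT. The Ccng2 sequence held none of the 6 motifs searched.

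The motifs were searched on both strands in the 250 bases before the start of each of 33469 RefSeq promoter entries. The 38 member promoters are 1 entry per member, whereas a gene with several distinct entries can count more than once among the 33469. The p53 half-site, 1 decamer of the p53 response element, matched in 7 of the 38 member promoters and in 6.64% of all promoters. The 7 were those of Aen, Ccng1, Cdkn1a, Cflar, Ei24, Gadd45a and Sesn1. CCAAT matched in 13 of 38 (34.0% of all promoters), the forkhead motif GTAAACA in 4 (3.21%), TATAAA in 2 (12.9%), the ATF4 motif TGATGNAA in 2 (3.40%) and the cyclic AMP element TGACGTCA in 1 (1.59%). No pair of these motifs overlapped in the sequences shown. A match describes these letters only and is no evidence of binding.

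Of these 47 genes, 42 exceeded a floor on the signal in 1 array or both, and 37 of them in both. The floor, a signal of 31.0, was the median of all signals, and dimmer signals were raised to it before taking log2. A ratio with 1 array at the floor is a bound. The error available is how far probe sets of 1 gene disagreed, with an SD of 0.23 on the log2 scale. It leaves out variation between clones, cultures and arrays.

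In the Ndrg-1-labelled array Gadd45a and Endog were higher by 2-fold or more, and 0 members were at least 2-fold lower. The 2 are 4.76% of the 42 measured members. Among all 9183 genes measured, 1.62% were at least 2-fold higher, 1.50% at least 2-fold lower and 3.13% either. The members' share lies near that background and is not a result about the members as a set. Scaled to the hybridisation spikes, which shifted all ratios upward, 7 members were 2-fold higher (Gadd45a, Gadd45b, Endog, Aen, Phlda3, Fadd and Bid), among 679 of 8961 genes. At 1.5-fold, a limit chosen after the values were seen, 3 members were higher, against 5.56% of all genes, and 2 were lower, against 5.18%. Together they are 11.9% of the members, against 10.7% of all genes. The median log2 ratio was -0.04 over the members and 0.0029 over all genes measured, and 24 of the 42 members lay below 0 (57.1%, against 49.6% of all genes).

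**Figure D1:**
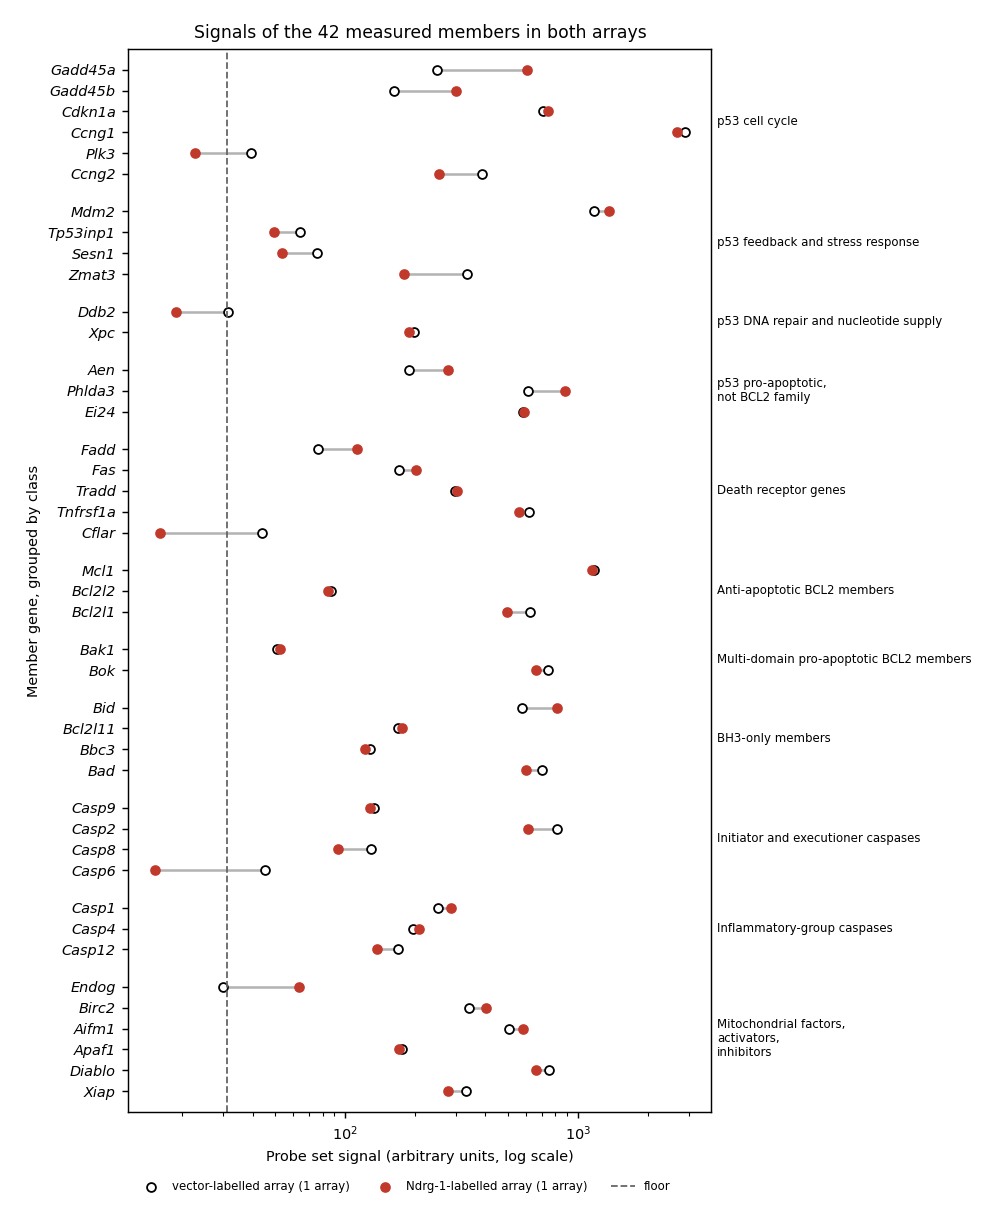
Probe set signals (log scale, arbitrary units) of the 42 measured members, by class; filled points are the Ndrg-1-labelled array, open points the vector-labelled array, 1 array each, and the dashed line is the floor at 31.0. The widest gap between arrays among members above the floor in both is that of Gadd45a (608 against 249.7), and different genes' signals are not comparable as amounts.

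The GADD45 pair stood highest among the p53 cell cycle targets. Gadd45a, which encodes a stress-induced protein that binds PCNA and the mitotic kinase CDK1 and activates the kinase MEKK4, gave signals of 608 in the Ndrg-1-labelled and 249.7 in the vector-labelled array. That is 2.44-fold higher, a log2 ratio of 1.28 on its only probe set, and ranked 79 from the highest of the 9183 genes measured. Its relative Gadd45b, a stress and NF-kappaB target that also acts on MEKK4, had signals of 301 and 162 (log2 ratio 0.89, 1.85-fold). Gadd45b lay just outside 2-fold. The direction of both was the same under every scaling and floor tried, with log2 ratios from 1.09 to 1.83 for Gadd45a and from 0.69 to 1.43 for Gadd45b. More cells with the transcript and more transcript per cell cannot be told apart in bulk RNA.

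The other cell cycle targets did not share that difference. Cdkn1a, the cyclin-dependent kinase inhibitor p21 and the classic p53 target, had signals of 747 and 711 (log2 ratio 0.07), and its second probe set had 96.7 and 107, a log2 ratio of -0.15. The probe sets of Cdkn1a thus differed in sign, and both lay within 1 SD of 0. Ccng1, which encodes the atypical cyclin G1, had signals of 2689 and 2893 (log2 ratio -0.11). Genes in that range of signal, at or above 1188, had a median log2 ratio of -0.15. Its relative Ccng2 had signals of 255 and 388 (log2 ratio -0.61, 1.52-fold lower). Plk3, a stress-responsive polo-like kinase gene, was at the floor in the Ndrg-1-labelled array (log2 ratio -0.34 or lower), and Plk2 was under the floor in both arrays. The median of the 6 measured genes of this class was -0.02, with 3 above 0 and 3 below.

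The class of p53 feedback and stress response genes was split. Mdm2, the ubiquitin ligase that p53 induces against itself, was above 0 on all 3 of its probe sets. Their signals were 1371 against 1177, 1228 against 858, and 435 against 299, log2 ratios of 0.22, 0.52 and 0.54. The probe set with the highest signal had the smallest ratio of the 3. Its mean signal lay in the range at or above 1188, where genes had a median log2 ratio of -0.15. With the lowess trend removed Mdm2 was at 0.30. Zmat3, which encodes an RNA-binding zinc finger protein, was the lowest of the members above the floor in both arrays, at 178 against 333, a log2 ratio of -0.90 (1.87-fold lower) on a single probe set. It lay just outside 2-fold and ranked 184 from the lowest of all genes measured. Casp6 and Cflar, bounds at the main floor, lay below it with the floor at 7.65. Sesn1, a sestrin that restrains mTORC1, had signals of 53.8 and 75.6 (log2 ratio -0.49). Its dimmer probe set, at the floor in the vector-labelled array, went the other way (0.23 or more). Tp53inp1, a p53 cofactor that also acts in autophagy, had signals of 49.6 and 64.0 (log2 ratio -0.37). The class median was -0.43 over 4 genes, of which Mdm2 alone was above 0, and it turned to 0.12 when scaled to the hybridisation spikes.

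The p53 targets tied to apoptosis outside the BCL2 family were higher or level. Aen, an apoptosis-enhancing nuclease, had signals of 278 and 189 (log2 ratio 0.56), and its second probe set had 93.9 and 59.3, a log2 ratio of 0.66. Phlda3, a p53-induced inhibitor of AKT at the membrane, had signals of 883 and 613 (log2 ratio 0.53). Ei24, an endoplasmic reticulum protein induced by p53, had signals of 586 and 585, a ratio of 0.0036. Perp was under the floor in both arrays. In the repair class, Xpc, which recognises DNA lesions for nucleotide excision repair, had signals of 189 and 197 (log2 ratio -0.06). Its partner in lesion recognition Ddb2 had 18.7 and 31.3, just above the floor in the vector-labelled array, a log2 ratio of -0.02 or lower.

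Over the 15 measured genes of the p53 target classes together, 1 was at least 2-fold higher, 0 at least 2-fold lower, 7 lay above 0 and 8 below. The median was -0.02, and the median size of the ratio without its sign was 0.37, against 0.20 for all genes measured. Plk3 and Ddb2 entered it as bounds. Fas and Bbc3, p53 targets placed in other classes, are not among the 15. Over the 20 further p53 targets measured, which are described below, the median size was 0.16. For the BCL2 family that size was 0.07 and for the caspases 0.31. These medians describe 2 arrays and carry no test.

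**Figure D2:**
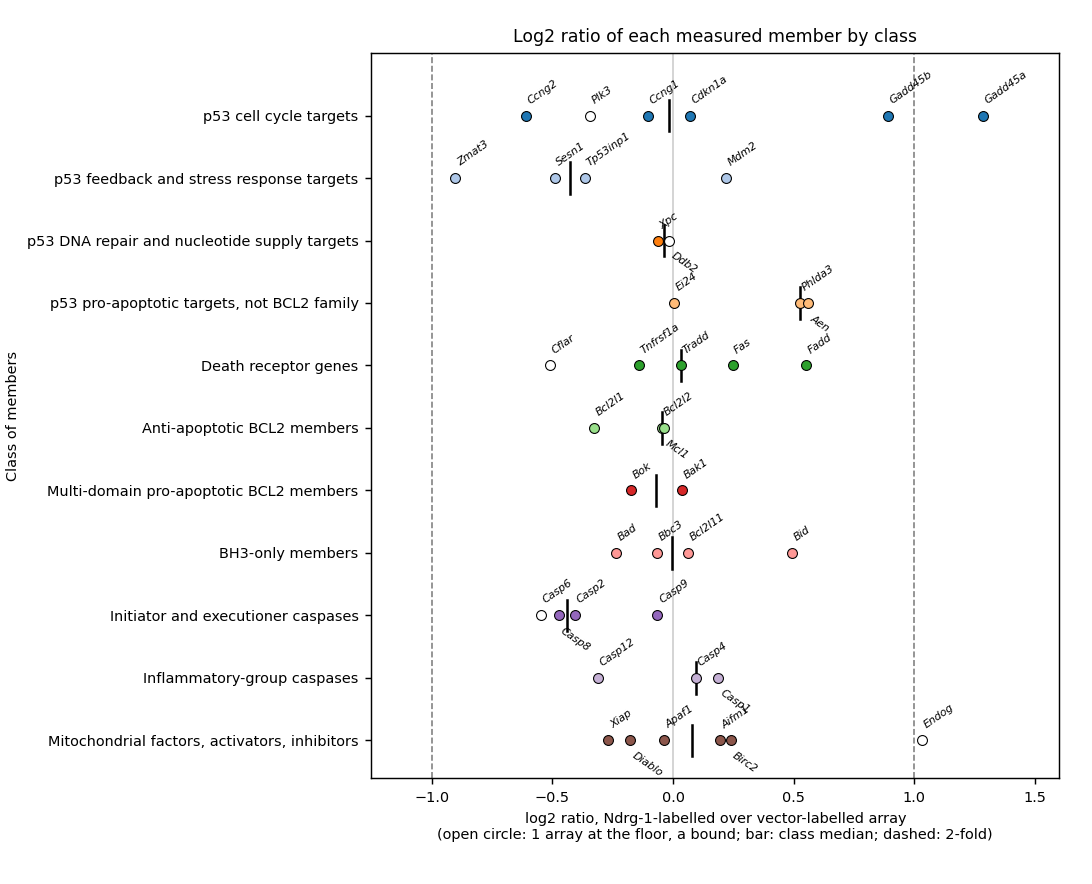
Log2 ratio of each of the 42 measured members (horizontal axis) by class (rows); an open circle is a bound because 1 array was at the floor, the bar is the class median and the dashed lines are 2-fold. Gadd45a at 1.28 and Endog at 1.03 are beyond the line, and the 4 initiator and executioner caspases lie below 0 at this scaling, while 3 of them lie above 0 when scaled to the hybridisation spikes.

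The BCL2 family had a median near 0 (-0.04), with ratios from -0.33 for Bcl2l1 to 0.49 for Bid. Its median was 0.50 when scaled to the hybridisation spikes and -0.24 when scaled to the poly-A spikes. Of its 14 members, 12 were on the array and 9 were measured, 0 of them 2-fold different at the main scaling. Bid, the BH3-only protein that caspase-8 cleaves to link death receptors with mitochondria, had signals of 812 and 577 (log2 ratio 0.49). Its second probe set had 346 and 237, a log2 ratio of 0.55. Both probe sets of Bid were thus higher by similar amounts, and the ratio stayed above 0 in every setting tried, reaching 2-fold (1.04) when scaled to the hybridisation spikes.

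The other BH3-only genes measured were nearer 0 than Bid. Bcl2l11, which encodes BIM, had signals of 176 and 169 (log2 ratio 0.06), and Bbc3, the p53 target PUMA, had 122 and 127, a log2 ratio of -0.07. Bad, which growth factor signalling inactivates by phosphorylation, had 598 and 704, a log2 ratio of -0.23. Bik and Bmf were under the floor in both arrays. The class median was -0.0032 over 4 genes. Of the multi-domain pro-apoptotic genes, Bak1 had signals of 52.3 and 51.0 (log2 ratio 0.04), and Bok had 663 and 749 (log2 ratio -0.18, second probe set -0.06).

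Of the anti-apoptotic genes, Mcl1 and Bcl2l2 were near 0, and Bcl2l1 was lower on its brightest probe set only. Mcl1, a short-lived BCL2 relative, had signals of 1149 and 1180.2 (log2 ratio -0.04), and its second probe set was at -0.12. Bcl2l2, which encodes BCL-W, had 84.6 and 87.2, a log2 ratio of -0.04. Bcl2l1, which encodes BCL-XL, had 497 and 624, a log2 ratio of -0.33, but its second probe set had 116 and 113, a log2 ratio of 0.04. The probe sets of Bcl2l1 were the farthest apart of any member with several measured in both arrays, by 0.37. Bcl2 itself was under the floor in both arrays (17.8 and 15.4) and could not be compared. The median was -0.04 over the 3 anti-apoptotic genes and -0.02 over the 6 pro-apoptotic genes.

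The 4 initiator and executioner caspases were lower in the Ndrg-1-labelled array by less than 2-fold, except that 3 of them lay above 0 when the arrays were scaled to the hybridisation spikes. Casp8, the initiator of the death receptor route, had signals of 93.2 and 129 (log2 ratio -0.47), and its second probe set had 83.5 and 124, a log2 ratio of -0.58. Casp2, an initiator linked to DNA damage, had 615 and 815, a log2 ratio of -0.41, and its second probe set had 94.1 and 129, a log2 ratio of -0.46. Both genes were therefore lower on each of their measured probe sets. Casp6, an executioner, had 15.2 and 45.2, which with the Ndrg-1-labelled array at the floor gives a log2 ratio of at most -0.55. A floor at the 25th percentile of signals, 7.65, made it 2-fold lower at -1.57. Casp9, the initiator of the mitochondrial route, had 128 and 134, a log2 ratio of -0.06.

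The median of these 4 caspases was -0.44. Scaled to the hybridisation spikes it was 0.10, with Casp8 at 0.07 and Casp2 at 0.14. The 3 caspases of the inflammatory group went both ways. Casp1, which matures interleukin-1 beta, had signals of 286 and 252 (log2 ratio 0.19), Casp4, which senses lipopolysaccharide, had 209 and 196 (0.09), and Casp12 had 137 and 169 (-0.31). Over all 7 caspases 0 were 2-fold different at the main floor, 5 lay below 0 and the median was -0.31, which turned to 0.23 when scaled to the hybridisation spikes.

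Among the death receptor genes, the adaptor Fadd was the highest and the caspase-8 inhibitor Cflar the lowest. Fadd, which brings caspase-8 to the receptors, had signals of 112 and 76.7 (log2 ratio 0.55). Cflar, which encodes c-FLIP, had 16.04 and 44.1, a log2 ratio of -0.51 or lower with the Ndrg-1-labelled array at the floor. At the floor of 7.65 it was 2-fold lower, at -1.46. Its second probe set was under the floor in both arrays. Fas, a death receptor and p53 target, had 202 and 170.0 (log2 ratio 0.25), while a dimmer probe set, for which the Ndrg-1-labelled array lay at the floor, was at -0.25 or lower. The receptor Tnfrsf1a had 561 and 618 (log2 ratio -0.14), and its adaptor Tradd 303 and 296 (0.03). The class median was 0.03 over 5 genes, of which 0 reached 2-fold.

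Endog, a mitochondrial nuclease, was the second member past 2-fold. It had signals of 63.3 and 29.8 on its only probe set, at least 2.04-fold higher with the vector-labelled array just under the floor. It was no longer 2-fold higher when a pseudocount of 16 replaced the floor (log2 ratio 0.79) or when the arrays were scaled to the poly-A spikes, and could not be measured with the floor at the 75th percentile. Aifm1, the mitochondrial apoptosis-inducing factor, had 584 and 509 (log2 ratio 0.20). Diablo, which encodes SMAC, the mitochondrial antagonist of the inhibitor of apoptosis proteins, had 664 and 750.4 (-0.18). Apaf1, the scaffold on which caspase-9 is activated, had 171 and 175 (-0.04). The inhibitors of apoptosis Birc2 and Xiap went opposite ways by small amounts. Birc2 had 403 and 341 (0.24), and Xiap had 276 and 332 (-0.27, second probe set -0.20).

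Further probe sets were the check available within each array, and 10 members had more than 1 probe set above the floor in both arrays. In 8 of these all probe sets had the same sign, the exceptions being Cdkn1a and Bcl2l1, and in 0 did the ratios differ by more than 2 SD of the disagreement. Sesn1 and Fas are not among the 10, because their dimmer probe set had 1 array at the floor. Their probe sets did differ in sign and by more than 2 SD. The ratios were -0.49 against 0.23 or more for Sesn1, and 0.25 against -0.25 or lower for Fas. Beyond 2 SD of 0 (0.46 on the log2 scale, a limit used after the values were seen) lay 13 of the 42 members, 7 higher and 6 lower. The same limit was passed by 16.9% of all genes measured, 8.55% higher and 8.34% lower. The higher members were Gadd45a, Gadd45b, Endog, Aen, Fadd, Phlda3 and Bid, and the lower were Zmat3, Ccng2, Casp6, Cflar, Sesn1 and Casp8.

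**Figure D3:**
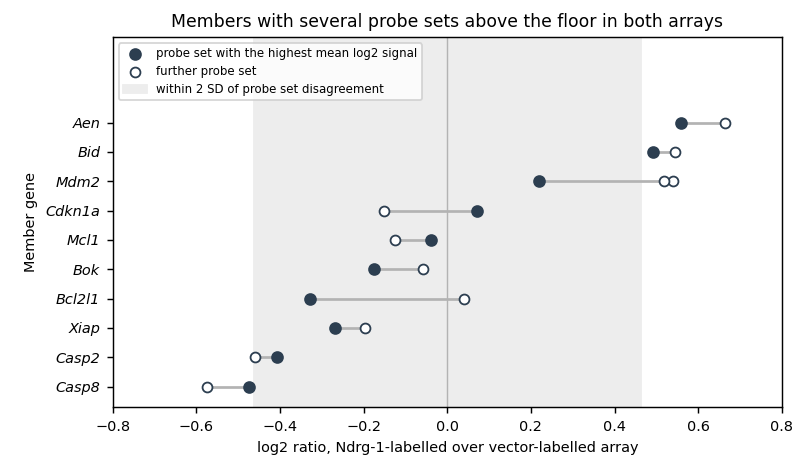
Log2 ratio of each probe set (horizontal axis) for the 10 members with more than 1 probe set above the floor in both arrays; filled points are the probe sets that represent the gene, open points the further ones, and the band is within 2 SD of the probe set disagreement. Scaled to the median gene, Aen, Bid and Mdm2 lie above 0 and Casp2 and Casp8 below 0 on each probe set (scaled to the hybridisation spikes, the probe sets that represent Casp2 and Casp8 turn above 0, to 0.14 and 0.07), while Cdkn1a and Bcl2l1 straddle 0.

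Other genes of the pathway, from lists that overlap no member, stayed within 2-fold at the main scaling and floor. Of 69 measured, 0 were 2-fold higher and 0 lower. Scaled to the hybridisation spikes, Atr, Pml and Ppp1r13b were 2-fold higher among 65 measured, and with the pseudocount of 16 Traf1 was 2-fold lower. With the floor at 7.65, Gdf15 and Dram1 were 2-fold higher and Tnf and Traf1 2-fold lower, among 81 measured. Of 18 genes for p53 control and DNA damage kinases, 14 lay above 0 (median 0.17), but 8 did when scaled to the poly-A spikes (median -0.02). The highest was Ppp1r13b, which encodes the p53 cofactor ASPP1, at 62.6 against 41.5 (log2 ratio 0.59), and the lowest was Ppm1d, the phosphatase that reverses p53 phosphorylation, at 187 against 239 (-0.35). Of 20 further p53 targets, 11 lay below 0 (median -0.02). The lowest was Siva1, a pro-apoptotic p53 target, at 1056 against 1890.4 (log2 ratio -0.84), and it was 2-fold lower when scaled to the poly-A spikes. Dram1, a p53-induced lysosomal protein of autophagy, had 44.6 with the vector-labelled array at the floor (0.53 or more), and Gdf15 37.3, likewise a bound (0.27 or more). The order of these bounds is not known. Of 31 further apoptosis genes, 16 lay above 0 (median 0.01), among them Birc3, an inhibitor of apoptosis, at 0.48. Tnfrsf11b and Traf1 were bounds, at -0.43 or lower and -0.23 or lower.

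How the named members hold under other processing is shown by setting. Scaling to the hybridisation spikes moved the median of all genes by 0.53 and scaling to the poly-A spikes by -0.19, and ratios here are relative to the median gene. Of the 42 members, 15 kept the sign of their ratio in every setting that measured them. These include Gadd45a, Gadd45b, Endog, Aen, Phlda3, Fadd, Bid and Mdm2 above 0, and Zmat3, Ccng2, Cflar and Casp6 below 0. Some kept it narrowly. Scaled to the hybridisation spikes, Casp6 was at -0.0021 and Ccng2 at -0.06, and Cflar was not measured. Scaled to the poly-A spikes, Mdm2 was at 0.02.

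**Figure D4:**
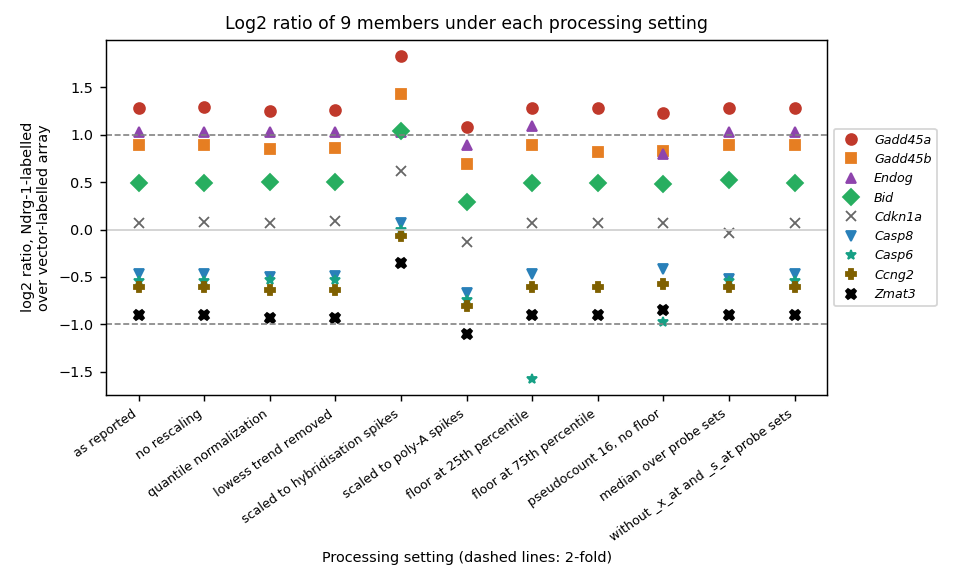
Log2 ratio (vertical axis) of 9 members under the reported processing and 10 alternatives (horizontal axis), with dashed lines at 2-fold. Gadd45a is above 2-fold in all 11, from 1.09 to 1.83, and Casp8 turns from -0.47 to 0.07 when the arrays are scaled to the hybridisation spikes.

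The arrays were alike in overall level, with median signals of 31.1 and 31.2 and Actb probe sets whose 3' signal was 1.21 and 1.24 times their 5' signal. Of 10 prostate epithelial markers on the array 2 were above the floor, with Cdh1, Epcam and Krt18 under it in both arrays, while 5 of 6 mesenchymal markers were measured (median -0.42, and 0.12 when scaled to the hybridisation spikes). The mesenchymal median was -0.10 under quantile normalization and -0.24 with the lowess trend removed. Vim, S100a4 and Fn1 had signals above 1188, a range in which all genes had a median log2 ratio of -0.15. Leukocyte markers were measured for 3 of 7, with the defining marker Ptprc at 2.72 and 3.26, and endothelial markers for 0 of 5. Summed over the leukocyte list the signal was 479 and 492. Cd68, a lysosomal protein, was at 0.85 and Cd14 at -0.56, and 3 of 8 fibroblast and smooth muscle markers were measured (median -0.0066). The part of these differences in the members' ratios was not tested.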

How the data were processed

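RNA of 2 clones was measured with 1 Affymetrix array each. The authors deposited a linear intensity for each probe set. Per the submitters' processing notes they used GCOS 1.3. How probe sets were summarised and scaled is not given in the sources used here. After trimming 2% of signals at each end the mean was 150.0 on either array, so the deposited intensities share a level. The number of arrays limits the precision.

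Of 31099 probe sets, 57 controls were set apart, and 20826 of the others carried 1 gene symbol, 436 several and 9780 none. Symbols were updated by gene ID through RefSeq (GRCr8). The vector signals were shifted by 0.0048 (log2) so that the median ratio of probe sets brighter than the overall median was 0. Signals under the floor were then raised to it, and log2 ratios were taken. A gene counted at 2-fold. There are no replicates, so no test was run. The SD of probe set disagreement came from 5341 probe sets of 2298 genes. Members and lists were chosen with earlier results of these data known. Values were given for each member at 2-fold, the extremes of each class and members whose probe sets differed, and the others followed. Alternatives were 5 scalings, 2 floors, a pseudocount of 16 and 2 treatments of probe sets. The procedure was tested on simulated data, with changes larger than 2-fold planted in brighter genes above the floor in both arrays. No change was planted near 2-fold or in genes at the floor, so such calls were not tested. Software was pandas 2.3.3 and numpy 2.4.6 in Python 3.11.15, with statsmodels 0.14.6 for lowess.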

Additional observations from a re-analysis of the deposited data

How the results depend on the processing

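With 1 array per group no replicate could be left out. No paired analysis was possible because each group holds 1 sample. A median was taken as moved when it shifted by more than the SD of the probe set disagreement, and a count when it changed by more than 1.5 times. No rescaling, quantile normalization, removal of the lowess trend, the median over probe sets and leaving out _x_at and _s_at probe sets moved none of the member counts or class medians. Scaled to the hybridisation spikes, 7 of 39 members were 2-fold higher, with 679 of 8961 genes higher and 40 lower, and the median was 0.51 over all members. Class medians there were 0.61 for p53 cell cycle targets, 0.12 for feedback and stress response, 0.48 for DNA repair, 1.07 for pro-apoptotic targets outside the BCL2 family, 0.68 for death receptor genes, 0.50 for anti-apoptotic, 0.47 for multi-domain and 0.54 for BH3-only BCL2 members, 0.10 for initiator and executioner caspases, 0.64 for inflammatory caspases and 0.62 for mitochondrial factors, activators and inhibitors. Scaled to the poly-A spikes, 1 of 42 members was higher (Gadd45a) and 1 lower (Zmat3), with 112 of 9331 genes higher and 244 lower. Under the 25th percentile as floor, 2 members were lower (Casp6 and Cflar), 446 of all genes were higher and 463 lower, and the medians of DNA repair and of pro-apoptotic targets outside the BCL2 family were -0.40 and 0.27. With the floor at the 75th percentile 1 member was higher, with 23 of all genes higher and 34 lower, and with the pseudocount 1 member was higher. At 1.5-fold, added after seeing the data, 3 of 42 members were higher and 2 lower, with 511 of 9183 genes higher and 476 lower. Of 402 values of single members under the alternatives, 49 moved by more than that SD, and no 2-fold difference changed sign. The cause of these shifts was not tested. Signals near the floor limit Casp6, Cflar, Ddb2, Plk3 and Endog, whose ratios are bounds.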

Other observations

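Some members lie next to each other in the RefSeq gene order. Casp1, Casp4 and Casp12 are consecutive protein-coding genes on chromosome 8 and had log2 ratios of 0.19, 0.09 and -0.31. Cflar and Casp8 are neighbours on chromosome 9, and both were below 0, at -0.51 or lower and -0.47.

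The 5 members on the array but under the floor in both arrays were Bcl2, Bik, Bmf, Plk2 and Perp. Plk2, a p53-induced polo-like kinase gene, had signals of 23.1 in the Ndrg-1-labelled array and 12.2 in the vector-labelled array, and Perp, a desmosome-associated p53 target, had 9.26 and 10.4.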
